A study of Mus musculus with 18 samples.

Results

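Chromatin accessibility at promoters was compared between mice with an Erbb4 knockout (KO) and wild-type (WT) mice in unsorted nuclei of the central amygdala (CeA). The comparison rests on 5 of the 18 libraries of the series, taken by their column titles: 3 KO and 2 WT libraries. The assay was ATAC-seq, in which Tn5 transposase cuts open DNA, and the value for a promoter is the number of reads within 1 kb of its transcription start site. All mice were C57BL/6J, 2 to 3 months old and labelled as untreated controls, and each library came from 50000 nuclei of microdissected tissue sorted with a DNA dye, with no marker of a cell type. The knockout was restricted to somatostatin-expressing (SOM+) cells, so every KO library also held nuclei of all other cell types with Erbb4 intact. Which line drove the knockout, which exons it removed and what share of the nuclei were SOM+ is not given in the sources used here. Because the genotype field names the knockout in all 5 libraries, WT was read from the titles. The protocol speaks of technical replicates at the sort, so p values measure the spread between these libraries, which may not all be separate mice. Cortex bulk libraries of the same design, again 3 KO and 2 WT, served to estimate the spread and to set the CeA values beside.

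ErbB4 is a receptor tyrosine kinase that binds neuregulins and some ligands of the epidermal growth factor family, and it can pair with the other ErbB receptors. In the forebrain it is known mainly from GABAergic interneurons, where neuregulin-ErbB4 signalling shapes excitatory input and inhibitory output. The central amygdala is built largely of GABAergic, striatal type neurons, and its somatostatin-expressing cells take part in fear learning. An ATAC-seq count at a promoter measures how open its DNA is, and not how much RNA is made from it.

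The libraries held 2751769 to 7220446 reads in promoter windows, and WT 2 was the shallowest. Levels below are CPM, counts scaled to a common library total. The sex labels did not match the Y-linked promoters of 2 of the 5 CeA libraries. KO 2, labelled male, had 0 reads in the Y-linked windows, which allows up to 0.416 CPM, and its Xist promoter stood at 25.5 CPM, above the 10.6 to 17.1 CPM of the other CeA libraries. WT 1, labelled female, had 43.2 CPM summed over Y-linked windows, beside 61.6 CPM in WT 2 and 105 and 80.5 CPM in KO 1 and KO 3. The cortex libraries with the same numbers went against their labels in the same way. The fit carries the labelled sex as a term. Among the bulk libraries only WT 1 of each region is labelled female, so the term rests on how WT 2 differs from WT 1. It draws each KO against WT estimate towards a comparison with WT 2. Both WT libraries held Y-linked reads, in CeA as given and in cortex at 104 CPM in WT 1 and 105 CPM in WT 2. The term is therefore a contrast of WT 1 with WT 2, and the Y-linked reads do not bear it out as one of sex. What else differs between these libraries cannot be told apart in it. CeA estimates without the sex term stand beside those they differ from in sign or by more than 1.5 times. The tissue label was checked against cortex. The GABAergic neuron markers summed to 837 to 1131 CPM in the CeA libraries and to 532 to 564 CPM in the cortex libraries. The promoter of Neurod6, a transcription factor of cortical excitatory neurons, stood at 8.73 to 18.4 CPM in CeA and at 66.0 to 97.9 CPM in cortex. Penk, the enkephalin precursor gene of striatal type neurons, stood at 65.6 to 99.0 CPM in CeA and at 25.8 to 52.9 CPM in cortex. Its ranges did not overlap, but the summed list of CeA and striatal type markers did, at 1098 to 1467 CPM in CeA and 940.9 to 1230 CPM in cortex.

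The Erbb4 promoter window did not separate the genotypes. It lies at chr1:69153634-69155633 (mm9), around the annotated start of the gene, and held 42.0, 30.3 and 35.2 CPM in the KO libraries and 36.3 and 40.0 CPM in the WT libraries. Both WT values lay inside the KO range. The means were 35.8 ± 5.90 CPM (SD, n = 3) in KO and 38.1 ± 2.65 CPM (SD, n = 2) in WT, a log2 difference of -0.23 ± 0.25 (SE) with a 95% interval from -0.74 to 0.28, and -0.09 without the sex term. In cortex the difference was -0.32 ± 0.23. A window at the start site checks the deletion only if the deleted part lies inside it, so these values check neither the knockout nor the labels. The 250 bases upstream of the Erbb4 start in RefSeq (GRCm38.p6, chr1:69108060-69108309, minus strand) are shown because this is the promoter of the targeted gene, with CG dinucleotides in capitals. They hold 12 of these, beside a median of 6 over the 32851 promoters of the table, of which 92.1% hold at least 1; CG reads the same on both strands.
Erbb4: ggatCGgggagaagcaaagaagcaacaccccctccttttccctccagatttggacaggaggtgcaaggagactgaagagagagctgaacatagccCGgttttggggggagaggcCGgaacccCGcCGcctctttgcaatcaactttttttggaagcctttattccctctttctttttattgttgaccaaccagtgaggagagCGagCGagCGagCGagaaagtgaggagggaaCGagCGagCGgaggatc

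None of the 15 ErbB receptor and ligand promoters was called at an adjusted p under 0.05 by the quasi-likelihood test of edgeR, where 0 of all 25196 promoters tested (0%) were called. Counted without a test, 2 of the 15 (13.3%) had all KO libraries above both WT libraries and 5 (33.3%) had all KO libraries below. Of all promoters, 14.9% and 13.6% did so. From 20 to 50 CPM, where the median level of the family lies, these shares were 14.5% and 5.91%. Of the 5 below, only Areg lay at that level. Erbb2 and Ereg lay from 10 to 20 CPM, where 24.8% of all promoters lay below. Epgn and Nrg4 lay from 5 to 10 CPM, where 27.3% did. The median difference over the 15 was -0.05 on the log2 scale (-0.09 without the sex term), beside 0.02 over all promoters.

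Among the receptors, Egfr stood at 20.6, 18.0 and 20.8 CPM in KO and 17.6 and 21.95 CPM in WT, with a log2 difference of -0.16 that became 0.02 without the sex term. Erbb2, the partner receptor with no known ligand of its own, held 10.6, 15.5 and 13.3 CPM in KO and 17.6 and 18.4 CPM in WT, so every KO library lay below both WT libraries, at -0.28 ± 0.37 (95% interval -1.05 to 0.48), or -0.45 without the sex term. Without WT 2 the Erbb2 estimate turned to 0.20. Erbb3, the receptor with little kinase activity, held 9.90, 17.1 and 11.4 CPM in KO and 18.0 and 13.8 CPM in WT, and these ranges overlapped, with a difference of -0.04 that became -0.32 without the sex term. No receptor promoter differed by more than the spread of the fit.

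Of the neuregulins, Nrg3, a ligand of ErbB4, was the most open at 87.8, 81.3 and 74.9 CPM in KO and 65.9 and 71.5 CPM in WT. Its KO libraries lay above both WT libraries, by 0.17 ± 0.21. Nrg1, the best studied ErbB4 ligand, had its KO libraries on either side of WT, at 41.7, 24.6 and 32.4 CPM against 29.0 and 29.7 CPM, and a difference of 0.08 (0.16 without the sex term). The start site of Nrg2 differed by 0.02 ± 0.22 (0.11 without the sex term), and that of Nrg4 by -0.51 ± 0.54 at only 5.15 CPM, the lowest level of the family. The signs of Nrg1 and Nrg2 were not stable between settings.

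Of the ligands named for epidermal growth factor, Areg, Ereg, Epgn and Btc are neighbours on chromosome 5. Ereg, which binds EGFR and ErbB4, held 7.63, 9.65 and 10.7 CPM in KO and 15.1 and 14.2 CPM in WT, a difference of -0.63 ± 0.37 (unadjusted p = 0.103; 0.0460 without the sex term). Areg and Epgn also had their KO libraries below WT, at -0.48 ± 0.34 and -0.38 ± 0.51 (-0.34 and -0.60 without the sex term). Btc, which again binds EGFR and ErbB4, went the other way, with 32.5, 26.2 and 33.3 CPM in KO and 22.4 and 25.1 CPM in WT. Its difference of 0.17 was 0.37 without the sex term and turned to -0.21 without WT 2. Egf, Tgfa and Hbegf overlapped between genotypes, with differences of 0.13, -0.05 and 0.21, or 0.35, -0.13 and 0.08 without the sex term.

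**Figure D1:**
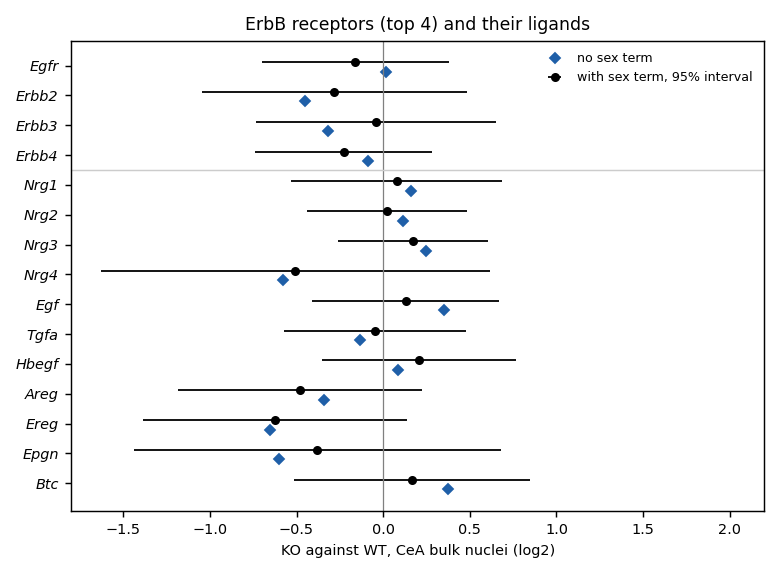
Log2 difference of KO against WT in CeA bulk nuclei (x axis) for the 4 ErbB receptors and 11 ligands (rows), fitted with the labelled sex (black points, bars are 95% intervals) and without it (blue diamonds). All 15 intervals include 0.

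The downstream ErbB signal transduction list, which holds adaptors, kinases and phosphatases of the pathway, had 45 promoters tested and 0 called. Its median difference was 0.08 (0.14 without the sex term, 0.00 after loess scaling), 13 members (28.9%) had all KO libraries above WT and 1 (2.22%) had them below. The median level of the list was 61.7 CPM, and 35.2% of all promoters from 50 to 100 CPM had all KO libraries above WT and 0.431% below. Akt2, a serine/threonine kinase that acts after PI3 kinase, was the only member with an unadjusted p under 0.05, which 2.96% of all promoters had. It held 59.1, 65.6 and 52.8 CPM in KO and 40.3 and 34.7 CPM in WT, a gap between the groups, with a difference of 0.80 ± 0.23 (unadjusted p = 0.00218, adjusted p = 0.999 by edgeR). In cortex Akt2 differed by 0.01 ± 0.22, and the difference between the regions was 0.78 ± 0.27 (unadjusted p = 0.00871), which was not called. The next member by p was Mtor, the growth-control kinase, with 33.0, 42.4 and 41.6 CPM in KO and 43.4 and 55.9 CPM in WT (-0.39 ± 0.22).

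Across all promoters, none separated the genotypes after adjustment. The smallest adjusted p was 0.999 by edgeR, and 745 of 25196 promoters (2.96%) had an unadjusted p under 0.05, 365 with KO higher (1.45%) and 380 with KO lower (1.51%). Without the sex term these were 503 (2.00%) and 841 (3.34%). DESeq2 and limma with cyclic loess scaling also called 0, with 576 and 1175 promoters at an unadjusted p under 0.05. The estimates were narrow at open promoters: the 95% interval lay within 1 log2 unit of 0, a change of less than 2 times, at 15022 promoters (59.6%). That share was 99.5% above 100 CPM, 99.0% from 50 to 100 CPM and 93.1% from 20 to 50 CPM, and it was 0.145% below 5 CPM. A difference confined to SOM+ nuclei reaches a bulk library only in proportion to their share, and fewer cells of a type and less open DNA per cell cannot be told apart in bulk nuclei.

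The difference moved with the level of the promoter, more so without the sex term. With the term its median was 0.09 below 5 CPM, -0.11 from 5 to 10 CPM, -0.12 from 10 to 20 CPM and 0.02 from 20 to 50 CPM, and 0.0997 and 0.11 in the bins from 50 to 100 and above 100 CPM. Without the sex term it was -0.32 below 5 CPM, -0.33 from 5 to 10 CPM and -0.21 from 10 to 20 CPM, and it was 0.06, 0.18 and 0.23 in the bins from 20 to 50, from 50 to 100 and above 100 CPM. Cyclic loess scaling, which kept the sex term, gave bin medians between -0.03 and 0.06, beside -0.12 to 0.11 with that term and TMM scaling. All KO libraries lay above WT at 39.4% of promoters over 100 CPM, and below WT at 27.3% of promoters from 5 to 10 CPM. The enrichment of the libraries moved the same way: the ratio of the median ribosomal protein promoter to the median olfactory receptor promoter was 17.4, 16.4 and 19.0 in KO and 10.3 and 15.6 in WT. Its means were 17.6 ± 1.32 (SD, n = 3) and 12.96 ± 3.74 (SD, n = 2), with an exact two-sided permutation p of 0.1, the smallest that 10 arrangements allow. Its part in the differences below was not tested.

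**Figure D2:**
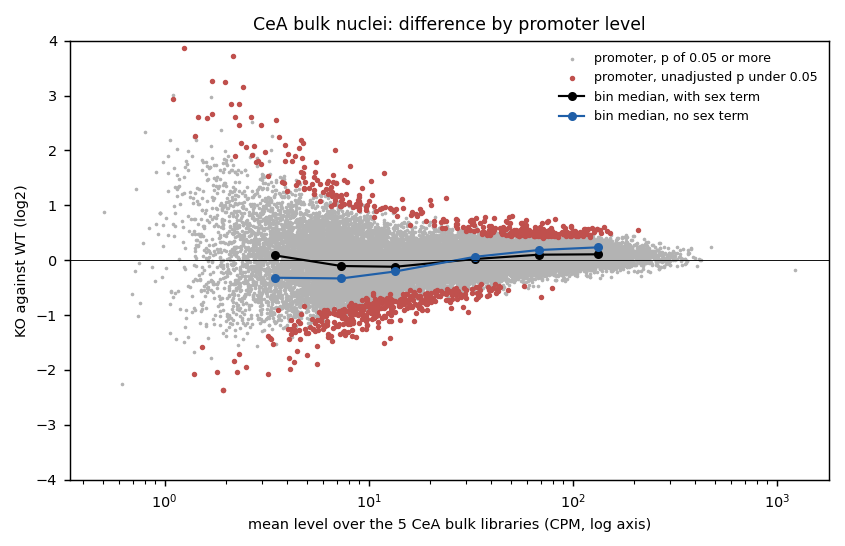
Log2 difference of KO against WT (y axis, cut at 4 either way) against the mean level of each of 25196 promoters in the 5 CeA libraries (x axis, log scale), with the 745 promoters at an unadjusted p under 0.05 in red. Lines join the median of each level bin with the sex term (black) and without it (blue), where the black line stays between -0.12 and 0.11 and the blue line runs from -0.32 at weak to 0.23 at strong promoters.

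The promoters with the smallest p were named by rule, 8 in each direction, among those without overlap between the genotypes. None passes the adjustment over all promoters, so they are described here and not listed as changed. Because they were chosen for small p and no overlap in these libraries, their direction is largely fixed by the choice, and what follows describes them and is no sign of stability. All 16 kept their direction under each of 15 alternative settings, and all 16 had an unadjusted p under 0.05 in 13 of these; without WT 2 it was 6 of 16, and without the 4 libraries whose Y-linked counts go against their label it was 13 of 16.

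Of the promoters higher in KO, Zbtb18 encodes a zinc finger repressor needed for cortical neuron development. It held 24.5, 19.6 and 29.0 CPM in KO and 15.8 and 11.7 CPM in WT, 1.10 ± 0.28 on the log2 scale (unadjusted p = 0.000874) and 0.79 without the sex term. Its window is wide, 3160 bases, and in cortex the difference was 0.48 ± 0.25. Taf1b, a subunit of the factor that recruits RNA polymerase I to ribosomal RNA genes, held 22.9, 13.4 and 10.52 CPM in KO and 6.44 and 6.37 CPM in WT. KO 1 was the highest, and each KO library lay above WT, and Taf1b did so in cortex too, at 1.08 ± 0.42. Zc3h10, a zinc finger RNA-binding protein gene, held 99.3, 86.0 and 80.9 CPM in KO and 58.6 and 55.2 CPM in WT (0.72 ± 0.20), and its window overlaps that of Rpl41, so the reads belong to both.

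Phospho2, a phosphatase gene, and Ccdc173 have windows that overlap and share most of their reads, so they count as 1 observation. Phospho2 held 104, 71.1 and 87.1 CPM in KO and 61.8 and 51.0 CPM in WT, 0.70 ± 0.22 on the log2 scale, and the KO libraries differed among themselves by more than the lowest of them differed from WT. Mcm2, a subunit of the replicative helicase, held 38.1, 41.3 and 46.4 CPM in KO and 32.5 and 25.1 CPM in WT. Smg6, an endonuclease of nonsense-mediated mRNA decay, held 64.4, 59.2 and 72.5 CPM in KO and 46.8 and 40.4 CPM in WT, in a window shared with Srr, the serine racemase gene. Differences in this group ran from 0.68 (Smg6) to 1.58 (Taf1b), and all were smaller without the sex term, down to 0.52 at Mcm2.

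Of the promoters lower in KO, 6 of the 8 stood at under 20 CPM in every KO library. Myl1, a myosin light chain of skeletal muscle, had the smallest p of all named promoters (0.000292, unadjusted). It held 8.76, 8.60 and 7.73 CPM in KO and 13.7 and 24.8 CPM in WT, so the KO libraries were close together and WT 2 stood far above WT 1, and the difference was -1.42 ± 0.33, or -1.15 without the sex term. Figf, which encodes the vascular growth factor VEGF-D, held 3.57, 4.36 and 5.15 CPM in KO and 5.59 and 14.5 CPM in WT, and here WT 1 lay just above the highest KO library. Tnip3, an inhibitor of NF-kB signalling, held 6.98, 5.03 and 3.22 CPM in KO and 9.66 and 13.1 CPM in WT. Slc24a5, a cation exchanger of pigment cells, held 11.9, 12.3 and 7.73 CPM in KO and 15.8 and 23.4 CPM in WT, again with WT 2 above WT 1.

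Of the other 4 promoters lower in KO, 3 had WT libraries that lay close together. Rin3, an exchange factor for the endosomal GTPase Rab5, held 9.25, 12.7 and 11.8 CPM in KO and 22.7 and 26.9 CPM in WT, with -1.10 ± 0.29 on the log2 scale and -1.13 without the sex term. Gas7, known for a role in neurite outgrowth, held 7.63, 9.92 and 5.58 CPM in KO and 16.4 and 16.3 CPM in WT (-1.21 ± 0.33), and cortex showed -0.12 ± 0.30. Acadl, the mitochondrial long-chain acyl-CoA dehydrogenase of fatty acid oxidation, held 20.6, 22.7 and 23.6 CPM in KO and 39.0 and 39.7 CPM in WT. The libraries were close together within each genotype, and the difference of -0.85 ± 0.24 hardly moved without the sex term (-0.82). Plcxd1, a phospholipase-like gene, held 20.6, 18.1 and 20.8 CPM in KO and 26.9 and 40.7 CPM in WT, where the WT libraries differed from each other by more than the lower one differed from KO.

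**Figure D3:**
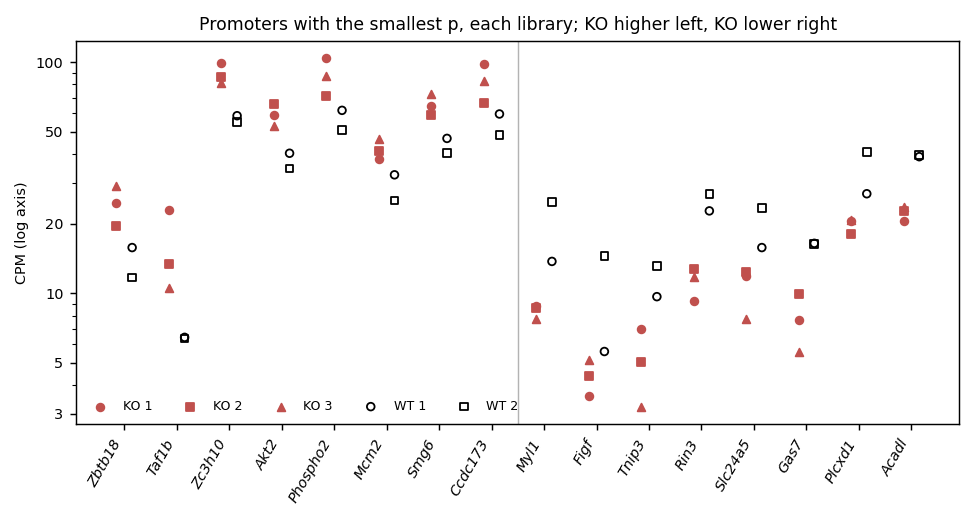
Level in CPM (y axis, log scale) of the 16 named promoters (x axis) in each CeA library, KO in filled red and WT in open black symbols. KO libraries lie above WT for the 8 promoters on the left and below WT for the 8 on the right, where WT 2 is often the highest.

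The upstream sequences of some of these promoters are shown as examples chosen for their different CG content. They span 250 bases before the RefSeq start (GRCm38.p6), with CG in capitals. Smg6 (chr11:74925604-74925853, plus strand) holds 30 CG and Zc3h10 (chr10:128547747-128547996, minus strand) 18, both higher in KO. Acadl (chr1:66863310-66863559, minus strand) holds 25 and was lower in KO. Its mean level was 29.1 CPM, beside 76.0 CPM at Zc3h10, so CG content followed neither the direction nor the level there. Tnip3 (chr6:65590148-65590397, plus strand), at a lower level, holds none. Only 55.7% of the tested promoters matched a single table entry by name, so no comparison of CG content over all promoters was made.
Smg6: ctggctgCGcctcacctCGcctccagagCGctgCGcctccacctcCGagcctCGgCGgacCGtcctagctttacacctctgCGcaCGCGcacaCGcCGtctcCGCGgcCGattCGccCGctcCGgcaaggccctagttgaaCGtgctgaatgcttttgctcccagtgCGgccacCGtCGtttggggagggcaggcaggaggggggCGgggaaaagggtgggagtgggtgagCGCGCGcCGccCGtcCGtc
Zc3h10: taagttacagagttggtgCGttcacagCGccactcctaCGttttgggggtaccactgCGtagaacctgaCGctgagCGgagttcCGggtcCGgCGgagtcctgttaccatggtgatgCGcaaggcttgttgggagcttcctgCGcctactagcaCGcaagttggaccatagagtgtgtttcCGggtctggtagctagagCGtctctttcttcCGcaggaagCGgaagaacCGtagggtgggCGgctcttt
Acadl: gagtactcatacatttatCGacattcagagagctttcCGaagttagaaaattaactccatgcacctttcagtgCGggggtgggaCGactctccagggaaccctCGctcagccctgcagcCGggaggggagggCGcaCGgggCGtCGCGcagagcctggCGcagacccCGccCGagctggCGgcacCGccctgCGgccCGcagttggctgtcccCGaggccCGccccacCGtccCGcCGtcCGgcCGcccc
Tnip3: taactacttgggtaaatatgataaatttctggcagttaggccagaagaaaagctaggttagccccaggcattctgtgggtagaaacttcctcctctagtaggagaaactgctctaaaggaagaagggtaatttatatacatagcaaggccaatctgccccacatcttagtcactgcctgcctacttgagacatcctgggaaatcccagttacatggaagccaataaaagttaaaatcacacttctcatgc

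Promoters near the targeted locus were looked at as a group. Within 15 Mb of the Erbb4 window, 231 promoters were tested and 0 were called. Of these, 2 had an unadjusted p under 0.05 with KO higher (0.866%) and 11 with KO lower (4.76%), beside 1.45% and 1.51% of all promoters. Without the sex term these were 7 and 13 of the 231, beside 503 (2.00%) and 841 (3.34%) of all 25196 promoters in that fit. All KO libraries lay above WT at 51 (22.1%) and below at 40 (17.3%), beside 14.9% and 13.6% of all promoters. Some of the 231 windows overlap and share most of their reads, such as those of Hspd1 and Hspe1, so the members are not all separate observations. The median difference was 0.00, and 0.0996 without the sex term. Myl1 and Acadl, described above, lie 2.17 and 2.24 Mb from Erbb4 on the side of lower coordinates.

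Acadl was lower in KO in both regions, with 22.1 CPM in KO and 42.9 CPM in WT in cortex and a cortex difference of -0.997 ± 0.24 (unadjusted p = 0.000366). The difference between the regions was 0.15 ± 0.30 (unadjusted p = 0.628). Bzw1, a regulator of translation initiation 10.7 Mb from Erbb4 at chr1:58448980-58450979 (mm9), held 60.5, 57.5 and 57.7 CPM in KO and 84.4 and 90.3 CPM in WT. Its CeA difference was -0.68 ± 0.20 (unadjusted p = 0.00258) and its cortex difference -0.72 ± 0.19 (unadjusted p = 0.00110), with 56.6 CPM in KO and 87.9 CPM in WT in cortex. Bzw1 was named after its values were seen, for being lower in both regions. In both Acadl and Bzw1 the KO and WT libraries did not overlap in either region. Of the 231, 7 (3.03%) were lower in every KO library in both regions, beside 218 of all 25196 (0.865%), and 5 were higher in both, beside 363 of all (1.44%). The regions may share mice, so they are not independent, and their fits share the sex term.

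**Figure D4:**
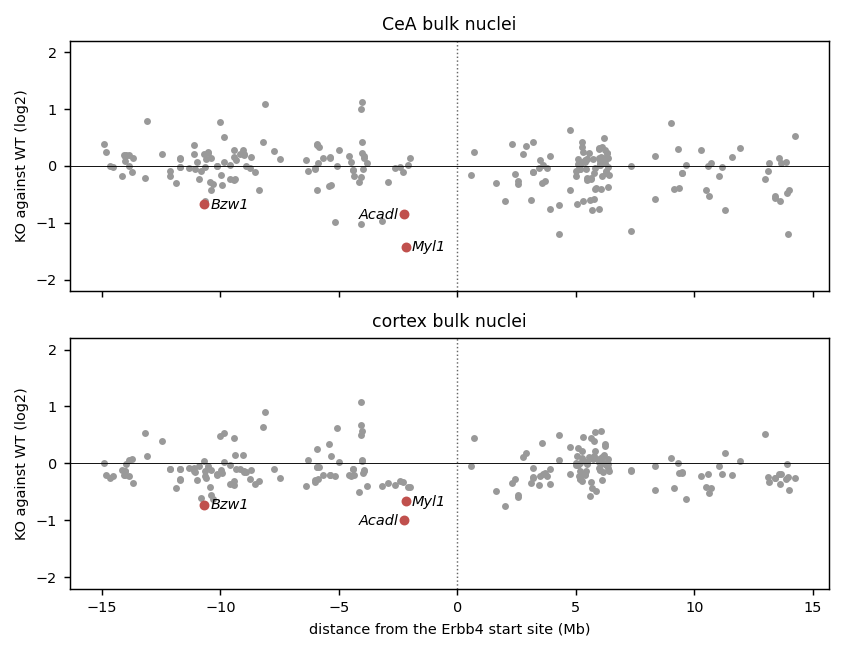
Log2 difference of KO against WT (y axis) of the 231 promoters within 15 Mb of Erbb4 by their distance from its start site in Mb (x axis), in CeA (top) and cortex (bottom). Acadl, Myl1 and Bzw1 are in red: Acadl stands at -0.85 in CeA and -0.997 in cortex, and Bzw1 at -0.68 and -0.72.

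None of the promoters on the somatostatin neuron list was called. The list also holds somatostatin receptor genes, so not every member marks the cells that carry the deletion. Sst, the somatostatin gene itself, held 27.3, 21.3 and 13.5 CPM in KO and 22.2 and 21.2 CPM in WT, a difference of -0.17 ± 0.34 with a 95% interval from -0.89 to 0.54, and -0.06 without the sex term. Of the 29 promoters on the list, 3 (10.3%) had an unadjusted p under 0.05 with KO lower and 0 with KO higher. These stand beside 1.51% and 1.45% of all promoters. Without the sex term they were 1 with KO lower and 0 with KO higher, beside 3.34% and 2% of all promoters. All KO libraries lay above WT for 1 (3.45%) and below for 3 (10.3%), beside 14.9% and 13.6% of all promoters. From 20 to 50 CPM, where the median level of the list lies, these shares of all promoters were 14.5% and 5.91%. The median difference of the list was -0.08 (-0.01 without the sex term). Reln, the extracellular glycoprotein reelin, and Sstr5, a somatostatin receptor, had the smallest p. Reln held 30.0, 28.0 and 32.8 CPM in KO and 29.3 and 49.9 CPM in WT, so only WT 2 stood above the KO range. Sstr5 held 9.25, 7.14 and 9.23 CPM in KO and 18.0 and 18.8 CPM in WT (-0.97 ± 0.41, unadjusted p = 0.0291).

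GABAergic neuron promoters had the highest median of the neuron lists, 0.29 with the sex term and 0.26 without it, and 0 were called. All KO libraries lay above WT for 5 of 19 (26.3%) and below for 1 (5.26%), beside 14.9% and 13.6% of all promoters, and beside 35.2% and 0.431% of those from 50 to 100 CPM, where the median level of the list lies. Gad2, a GABA-synthesizing enzyme, held 95.1, 60.8 and 70.8 CPM in KO and 54.7 and 48.9 CPM in WT (0.53 ± 0.24, unadjusted p = 0.0379). Dlx6, a homeobox factor of these neurons, held 145, 115 and 114 CPM in KO and 99.9 and 84.3 CPM in WT (0.46 ± 0.22). KO 1 was the highest library for both genes. Without WT 2 the median of the list was 0.02. The summed level of the list was 916.6 to 1131 CPM in KO and 836.9 to 850.5 CPM in WT.

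The list of CeA and striatal type neurons had a median of 0.06 (0.14 without the sex term) and 0 called. All KO libraries lay above WT for 8 of 32 promoters (25%) and below for none, beside 14.9% and 13.6% of all promoters and 14.5% and 5.91% of those from 20 to 50 CPM, the level of the list. Bcl11b, a transcription factor of striatal neurons, led it with 53.1, 52.2 and 46.4 CPM in KO and 33.0 and 39.3 CPM in WT (0.52 ± 0.24). Its summed level was 1224 to 1467 CPM in KO and 1098 to 1248 CPM in WT. Glutamatergic neuron markers had a median of -0.04 (-0.07 without the sex term), with 1 of 30 above (3.33%) and 4 below (13.3%), and Neurod6 held 15.6, 8.73 and 9.01 CPM in KO and 9.66 and 18.4 CPM in WT. Markers of the neighbouring basolateral amygdala had a median of -0.06 that became 0.01 without the sex term, with 0 of 17 above and 2 below (11.8%), and Ppp1r1a held 32.5, 32.4 and 47.9 CPM in KO and 39.5 and 49.6 CPM in WT. Both lists overlapped in their summed levels, at 1230 to 1531 CPM in KO and 1159 to 1358 CPM in WT for the glutamatergic one. How far the dissections differ in such neurons was not tested.

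Among markers of other interneurons, 0 of 19 were called, and the median was -0.01 (-0.09 without the sex term). All KO libraries lay above WT for 2 (10.5%) and below for 4 (21.1%), beside 14.9% and 13.6% of all promoters. From 20 to 50 CPM, where the median level of the list lies, these shares of all promoters were 14.5% and 5.91%. Kit, a receptor tyrosine kinase, held 29.5, 26.3 and 20.4 CPM in KO and 32.2 and 41.1 CPM in WT (-0.69 ± 0.26), and Syt2, a synaptic vesicle calcium sensor, held 12.2, 12.4 and 14.4 CPM in KO and 15.8 and 26.6 CPM in WT (-0.86 ± 0.35). For both genes WT 2 stood above WT 1, and the KO libraries were all below both.

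None of the glial and vascular marker promoters was called. Astrocyte, oligodendrocyte and vascular lists had medians of -0.13, -0.14 and -0.13, or -0.14, -0.18 and -0.26 without the sex term. All KO libraries lay above WT for 2 of 20 astrocyte (10%), 2 of 26 oligodendrocyte (7.69%) and 1 of 30 vascular promoters (3.33%). They lay below for 2 (10%), 2 (7.69%) and 4 (13.3%), where 14.9% of all promoters lay above and 13.6% below. From 10 to 20 CPM, the median level of the oligodendrocyte and vascular lists, these shares of all promoters were 3.64% and 24.8%. From 20 to 50 CPM, where the astrocyte median level of 20.3 CPM lies, they were 14.5% and 5.91%. Estimates were above 0 for 6 astrocyte, 11 oligodendrocyte and 12 vascular promoters. The members with the smallest p in the astrocyte and oligodendrocyte lists were lower in KO. S100b, a calcium-binding protein of astrocytes, held 16.6, 16.7 and 13.3 CPM in KO and 18.0 and 28.3 CPM in WT (-0.75 ± 0.27), and Cldn11, a tight junction protein of myelin, held 22.9, 23.8 and 14.0 CPM in KO and 28.5 and 36.5 CPM in WT (-0.76 ± 0.28). The astrocyte list summed to 466.5 to 483.9 CPM in KO and 484.0 to 516.9 CPM in WT, and the oligodendrocyte list to 548.7 to 563.3 CPM in KO and 576.0 to 594.4 CPM in WT. Neither sum overlapped between the genotypes, and the median over all promoters below 20 CPM was also lower in KO without the sex term, as given above. Microglial promoters had a median of 0.06 with the sex term and -0.25 without it. Of 22, 13 estimates lay above 0 with the term, and all KO libraries lay above WT for 2 (9.09%) and below for 6 (27.3%). The median level of this list was 10.03 CPM. Of all promoters, 3.64% lay above and 24.8% below from 10 to 20 CPM, and 2.5% and 27.3% from 5 to 10 CPM. C1qa, a complement subunit and 1 of the 6 microglial promoters below, held 2.76, 5.95 and 6.65 CPM in KO and 9.15 and 10.6 CPM in WT. The ependymal and choroid plexus list changed sign likewise, from 0.28 to -0.08. Its median level also lay from 10 to 20 CPM, with the shares given above. All KO libraries lay above WT for 2 of 14 (14.3%) and below for 3 (21.4%). Foxj1, 1 of the 2, the regulator of motile cilia, held 41.4, 42.8 and 47.4 CPM in KO and 34.2 and 28.0 CPM in WT.

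Lists of strong, broadly open promoters lay above WT in many members. Of 85 cytosolic ribosomal protein promoters, 34 (40.0%) had all KO libraries above WT and 3 below, with a median of 0.16 that was 0.09 after cyclic loess scaling, and 0 were called. Rps9 led them with 39.8, 33.1 and 36.1 CPM in KO and 29.8 and 20.5 CPM in WT (0.72 ± 0.25). Of 82 promoters of respiratory chain subunits, 28 (34.1%) lay above and 3 below, with a median of 0.12 (0.05 after loess scaling), and Ndufv2 of complex I held 187, 150 and 147 CPM in KO and 124 and 104 CPM in WT. These shares stand beside 35.2% of all promoters from 50 to 100 CPM. Of 53 chromatin modifier promoters, 13 lay above (24.5%) and 3 below (5.66%), beside 14.9% and 13.6% of all promoters. From 50 to 100 CPM, where the median level of that list lies, these shares of all promoters were 35.2% and 0.431%. The 5-methylcytosine dioxygenase gene Tet1, lower in KO, held 7.95, 3.57 and 5.58 CPM in KO and 9.15 and 11.7 CPM in WT (-1.02 ± 0.45), and Eed, a subunit of Polycomb repressive complex 2, held 142, 132 and 127 CPM in KO and 104 and 102 CPM in WT (0.43 ± 0.20).

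Synaptic and activity genes gave no promoter called. Of 36 immediate early and activity-induced promoters 9 lay above WT (25%) and none below, beside 14.9% and 13.6% of all promoters and 35.2% and 0.431% of those from 50 to 100 CPM, where the median level of the list lies. Its median was 0.08, or 0.13 without the sex term and 0.00 after loess scaling. Ier3, an early response gene, held 9.41, 16.5 and 13.1 CPM in KO and 15.9 and 21.95 CPM in WT. Bdnf, the brain-derived neurotrophic factor gene, held 52.8, 37.0 and 35.6 CPM in KO and 31.3 and 69.4 CPM in WT, so the WT libraries enclosed all KO libraries. Of 36 synaptic scaffold and adhesion promoters at a similar level, 9 lay above (25%) and 1 below (2.78%), with a median of 0.12. GABA-A receptor subunits had a median of -0.01 and ionotropic glutamate receptor subunits of 0.05, or 0.18 and 0.13 without the sex term. Of their 19 and 18 members, 2 each lay above (10.5% and 11.1%) and 1 each below (5.26% and 5.56%). The median levels of both lists lay from 20 to 50 CPM, where 14.5% of all promoters lay above and 5.91% below. Gabrr2, a rho subunit, held 22.9, 26.7 and 26.0 CPM in KO and 19.3 and 17.7 CPM in WT, and Grik4, a kainate receptor subunit, held 37.3, 40.7 and 42.5 CPM in KO and 43.2 and 29.4 CPM in WT. Neuropeptide receptors had 2 of 28 above and 2 below (7.14% each), with a median of 0.05 (0.11 without the sex term). Of the 28 glucocorticoid and stress genes, 5 lay above (17.9%) and 4 below (14.3%). Both this list and the neuropeptide receptors had median levels from 20 to 50 CPM, where 14.5% of all promoters lay above and 5.91% below. Fkbp5, a co-chaperone of the glucocorticoid receptor, held 41.6, 47.2 and 45.5 CPM in KO and 43.2 and 27.6 CPM in WT.

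Several lists of weak, clustered promoters depended on the sex term. Clustered protocadherins, adhesion genes of neuronal self-recognition, had a median of 0.40 with the sex term and 0.07 without it, at 7.10 CPM. Pcdhgb2 held 6.17, 7.67 and 4.51 CPM in KO and 8.13 and 0.708 CPM in WT, so the WT libraries lay on both sides of KO. Hox genes, regulators of the trunk axis, went from 0.15 to -0.32, and Hoxc9 held 8.28, 8.46 and 6.01 CPM in KO and 6.10 and 3.54 CPM in WT. Olfactory receptor promoters went from 0.04 to -0.26. Clustered histone promoters had a median of 0.00 (0.11 without the sex term), with 10 of 63 above (15.9%) and 4 below (6.35%). These stand beside 14.9% and 13.6% of all promoters, and 35.2% and 0.431% of those from 50 to 100 CPM, the level of the list. Hist1h2af held 27.4, 34.9 and 35.2 CPM in KO and 29.3 and 49.6 CPM in WT.

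**Figure D5:**
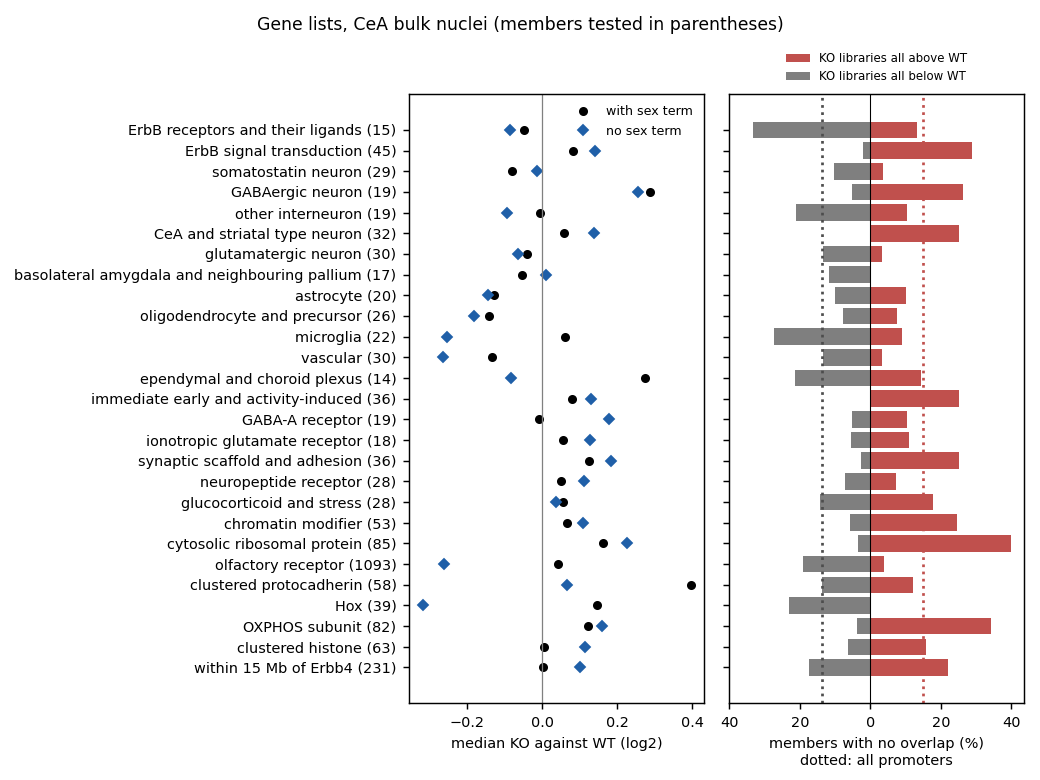
Left, median log2 difference of KO against WT (x axis) for each gene list (rows, with members tested), with the sex term (black) and without it (blue). Right, share of members in percent whose KO libraries all lie above (red) or below (grey) both WT libraries, with dotted lines at 14.9% and 13.6% for all promoters; ribosomal protein promoters reach 40.0% above.

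The CeA difference was set beside that in cortex by the interaction of genotype and region. By edgeR 0 of 25196 promoters (0%) were called for a larger or smaller difference in CeA, with 590 (2.34%) at an unadjusted p under 0.05. DESeq2 and limma with cyclic loess scaling called 0 as well, with 524 and 566 at an unadjusted p under 0.05. In cortex alone edgeR called 0 (0%), with 823 (3.27%) at an unadjusted p under 0.05, and without the sex term that number was 284. The named promoters were chosen by their CeA difference, so a gap to cortex is partly built in. Akt2, described above, and Figf had small unadjusted p values for the interaction. Figf differed between the regions by -1.15 ± 0.40 (unadjusted p = 0.00892), but its promoter was also more open in cortex, at 35.1 CPM in KO and 33.6 CPM in WT. Gas7 differed by -1.09 ± 0.39 and Rin3 by -0.995 ± 0.37. Since no promoter was called, none is described as particular to the amygdala.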

How the data were processed

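Reads in promoter windows were deposited as raw counts, 1 column per library, in the mouse build mm9, with no normalization by the authors. The columns hold whole numbers with different totals. Trimmomatic 0.32, Bowtie2, MACS2, Picard 1.88 and bcl2fastq 2.16.0.10 are named in the submitters' processing notes. How reads were counted, and how duplicates and the Tn5 offset were handled, is not given in the sources used here. Reads outside promoter windows were not analysed here, so totals are promoter reads and not sequencing depth. The table has 26728 entries. Dropping 663 with a window already listed gave 26065, of which 24630 span 2000 bases and 1435 are wider (up to 6222). The filter on low counts passed 25196 and removed 869.

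The 10 bulk libraries (CeA and cortex) were fitted together in edgeR 4.0.16 (R 4.3.3) with the quasi-likelihood F test, TMM scaling, filterByExpr (minimum count 10, minimum total 15), a mean per group and the labelled sex, with 5 residual degrees of freedom. Adjustment was by Benjamini-Hochberg over all promoters tested, and a promoter was called at an adjusted p under 0.05. CPM are counts scaled to the TMM-adjusted library total, and the limit that a count of 0 allows is 3 counts and covers counting error only. Alternatives were DESeq2 1.42.0, limma 3.58.1 with cyclic loess scaling, total-count scaling, no filter, no sex term, CeA or male-labelled libraries alone, a replicate block and each CeA library left out. After the data were seen, sex taken from Y-linked counts and omission of the 4 libraries that go against their label were added. The fit was tested on simulated data.

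Gene lists were summarised by counts and medians with no set test, and the window with the highest mean count stood for a gene. Members and lists were chosen with earlier results of these data known. Named promoters are the 8 per direction with the smallest p and no overlap between the genotypes, leaving out predicted genes, sensory receptors and small RNAs, plus every ErbB receptor and ligand and 1 or 2 members of each list by p. The upstream sequences are from RefSeq (GRCm38.p6), matched by symbol and by their offset from the starts of neighbouring genes, which left out Myl1, and the window coordinates are from mm9 and were not converted.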

Additional observations from a re-analysis of the deposited data

Results flagged for a closer look

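Ccdc173 was the only promoter described above whose libraries moved in opposite directions in the 2 regions. Every CeA KO library lay above both CeA WT libraries, and every cortex KO library lay below both cortex WT libraries. The difference between the regions was 0.72 ± 0.26 on the log2 scale (unadjusted p = 0.0121 for the interaction in edgeR), and it was not called after adjustment. The window shares most of its reads with Phospho2, whose cortex libraries overlapped between the genotypes.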

How the results depend on the processing

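No setting called a promoter for the CeA comparison except the replicate block, which called 3, the Y-linked Eif2s3y, Uty and Ddx3y. It called 3 in cortex as well. The main fit had no block because the numbers are not said to mark shared animals. Deviations of same-numbered KO and WT libraries from their group means correlated at -0.20 and -0.33 in CeA and 0.41 and -0.22 in cortex. Across the regions, same-numbered libraries of 1 genotype correlated at -0.20, 0.26 and 0.02 (KO 1 to 3) and at 0.38 (WT). With 2 WT libraries per region, their deviations mirror each other by construction (correlation of -1), so these values cannot show whether the numbers mark pairs. The block put the median of the Y-linked list at -9.52, from 0.19, and called 3 of its members, and it changed no other call.

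The 745 promoters at an unadjusted p under 0.05 became 1175 with limma and cyclic loess scaling, 1344 without the sex term, 2354 in the CeA libraries alone, 1581 with sex from Y-linked counts and 452 without the 4 libraries that go against their label. Leaving out each CeA library gave 311 (without WT 2) to 736. Of the 745, 412 (55.3%) were shared with the fit without the sex term, or 30.7% of the 1344. In cortex 823 became 284 without the sex term, 266 with Y-linked sex, 370 without the 4 libraries and 1629 with the block. For CeA minus cortex 590 ranged from 274 (without WT 2) to 911 (without KO 2), and was 358 without KO 1. The enrichment difference of 4.65 ranged from 2.00 without WT 1 to 7.29 without WT 2.

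Signs of small ErbB family estimates were not stable. Nrg2 was -0.021 with total counts, -0.039 with loess, -0.061 in male-labelled libraries and -0.059 without the 4 libraries, and it ran from -0.060 to 0.14 with 1 library left out. Egf was -0.16 with the block (-0.010 to 0.26), Nrg1 -0.055 with the block (-0.20 to 0.26), and Erbb3 0.0015 with loess and 0.063 with the block (-0.32 to 0.12). Egfr was 0.016 without the sex term and 0.035 with Y-linked sex. Leaving out 1 CeA library gave -0.21 to 0.28 for Btc, -0.15 to 0.070 for Tgfa, -0.034 to 0.30 for Hbegf and -0.49 to 0.20 for Erbb2. Beyond that family it gave -0.061 to 0.37 for Glul, -0.73 to 0.0012 for Bdnf, -0.098 to 0.56 for Gria3 and -0.0072 to 0.40 for Syn2. Hcrtr1 was -0.029 without the sex term, -0.072 in CeA alone and -0.086 with Y-linked sex, where C1qb was -0.0087.

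List medians moved as follows, with the range over single libraries left out in brackets. Without the sex term they were -0.095 for other interneurons [-0.17 to 0.021], -0.25 for microglia, -0.26 for vascular [-0.38 to 0.027], -0.084 for ependymal [0.0024 to 0.26], 0.18 for GABA-A receptors, 0.23 for ribosomal proteins, 0.066 for protocadherins, -0.32 for Hox and 0.10 within 15 Mb of Erbb4 [-0.092 to 0.027]. In CeA alone they were -0.13 for other interneurons, -0.29 for microglia, -0.30 for vascular, -0.12 for ependymal, 0.14 for GABA-A receptors, 0.016 for protocadherins and -0.36 for Hox. With Y-linked sex they were 0.20 for GABAergic neurons [0.016 to 0.29], 0.16 for basolateral amygdala, -0.35 for microglia, -0.24 for vascular, -0.15 for ependymal, 0.15 for immediate early [-0.042 to 0.081], 0.18 for GABA-A receptors, 0.23 for ribosomal proteins, -0.041 for protocadherins, -0.49 for Hox and 0.13 near Erbb4. With the block they were -0.16 for the ErbB family [-0.20 to -0.034], 0.17 for GABAergic neurons, -0.087 for other interneurons, -0.21 for basolateral amygdala, -0.068 for astrocytes [-0.20 to -0.052], -0.051 for vascular, 0.024 for immediate early and 0.13 for chromatin modifiers. With loess they were -0.030 for vascular, 0.0031 for immediate early, -0.015 for chromatin modifiers, 0.086 for ribosomal proteins and 0.053 for the respiratory chain. In male-labelled libraries they were 0.026 for vascular, 0.16 for ependymal and -0.043 for immediate early. Without the 4 libraries they were -0.19 for astrocytes, 0.15 for ependymal and -0.028 for immediate early. The neuropeptide receptor median ranged from -0.18 to 0.15 over single libraries left out. The sex term rests on WT 1 and WT 2, as given above, and what else lies behind these shifts was not tested. WT rests on 2 libraries, and leaving 1 out assumes that the other varies like the remaining groups. Depth limits promoters under 10 CPM most.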
